A study of Mus musculus with 112 samples.

Results

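The epiblast-like cells (EpiLCs) described here either carried a catalytically inactive LSD1 (LSD1 CI), an enzyme that can no longer demethylate histone H3 at lysine 4, or were wild type (WT). The 4 libraries were chosen by their labels, as the LSD1 CI and the WT EpiLC libraries given the solvent dimethyl sulfoxide (DMSO), with 2 libraries in each group, out of 112 RNA-seq libraries in the series. The LSD1 CI line was a V6.5 mouse embryonic stem cell (ESC) line whose own Kdm1a gene had been edited. A lysine of the catalytic part was thereby read as glutamine and an alanine as glutamic acid. In the study's blots of ESCs the mutant protein was at a level comparable to WT. The WT group was the unedited V6.5 line. LSD1 knockout (KO) EpiLCs with DMSO, in which the promoter and first exon of Kdm1a had been deleted (2 libraries), are set beside them. All 3 groups had been taken from naive culture, with inhibitors of MEK and GSK3 and with LIF, to fibronectin-coated plates for 2 days with 20 ng/ml activin A, 12 ng/ml FGF2 and 1% serum replacement. The model also held 2 LSD1 KO EpiLC libraries given A485, an inhibitor of the acetyltransferases P300 and CBP. They added to the estimate of spread and are not compared below. The study states that its RNA-seq drew on independent clones, but the labels do not tie these libraries to clones or cultures, so the p-values measure the spread between libraries, which may be technical.

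LSD1 works in the CoREST complex, where scaffolds of the RCOR family join it to histone deacetylases. The complex is known mainly as a repressor that lowers H3K4 methylation and histone acetylation at enhancers and promoters. On leaving the naive state for the formative one, cells normally silence naive pluripotency genes such as Esrrb and Klf2 and turn on formative genes such as Fgf5 and Otx2, while DNA methylation is laid down by Dnmt3a and Dnmt3b and silences many germline genes. EpiLCs are the culture model of this step.

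Depth was 42708637 and 45150146 counts in LSD1 CI libraries and 37074848 and 48554838 counts in WT libraries, and the ribosomal precursor Rn45s took between 19.8% and 21.4% of them. Levels below are in CPM, the counts of a gene per 1000000 counts of the same library. Kdm1a was measured at 111 and 107 CPM in LSD1 CI libraries, at 0.43 and 0.38 CPM in LSD1 KO libraries and at 170 CPM in both WT libraries. The edited allele thus gave transcript, with a log2 difference from WT of -0.63 ± 0.07 (SE; adjusted p = 4.6e-05 by edgeR's quasi-likelihood test with Benjamini-Hochberg adjustment, which holds for every adjusted p below). In naive ESCs Kdm1a was at 179 ± 4.57 CPM (SD, n = 4) in LSD1 CI libraries and at 192 ± 26.8 CPM (n = 11) in WT libraries. After serum culture it was at 129.6 ± 0.20 CPM (n = 2) in LSD1 CI libraries and at 201.5 ± 6.61 CPM (n = 2) in WT libraries. In embryoid bodies it was at 143 ± 10.6 CPM (n = 4) in LSD1 CI libraries and at 203 ± 16.7 CPM (n = 7) in WT libraries. Whether LSD1 protein was lower in LSD1 CI EpiLCs was not tested. The libraries carried the defining genes of their label. Dnmt3b was at 1781 and 1848 CPM in LSD1 CI libraries and at 2113 and 2139 CPM in WT libraries, Pou3f1 at 242 and 219 CPM against 257 and 252 CPM, and Fgf5 at 65.7 and 67.9 CPM against 58.3 and 52.4 CPM. Otx2 was at 63.3 and 78.7 CPM in LSD1 CI libraries and at 76.0 and 71.3 CPM in WT libraries.

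A gene was called changed at an adjusted p below 0.01 and a log2 fold change above 1 in either direction. Of 15986 genes tested, 257 were higher in LSD1 CI than in WT EpiLCs (1.61% of the genes tested) and 86 were lower (0.538%). The median size of the change was 1.58 on the log2 scale among the higher genes and 1.30 among the lower genes, against 0.21 over all genes tested. Most called genes were low: 151 of the 257 and 46 of the 86 had a mean under 5 CPM over the 4 libraries. In 3 of the higher genes no count was seen in either WT library, so their fitted changes, the largest among the called genes, are no bound and these genes are not named. Many more genes differed slightly. At an adjusted p below 0.05 with no fold limit 1263 were higher (7.9%) and 989 lower (6.19%). An unadjusted p below 0.05 was seen in 27.4%, with 2337 genes higher and 2044 lower. The libraries of the groups did not overlap in 26.2% (higher) and 30.1% (lower). These shares and those of the called genes are the background for the gene lists below. With 2 libraries a group the counts moved with single libraries. The higher count was 388 without WT replicate 1, 127 without WT replicate 2 and 108 without LSD1 CI replicate 2, and the lower count was 168 without WT replicate 1, 18 without WT replicate 2, 35 without LSD1 CI replicate 1 and 26 without LSD1 CI replicate 2.

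**Figure D1:**
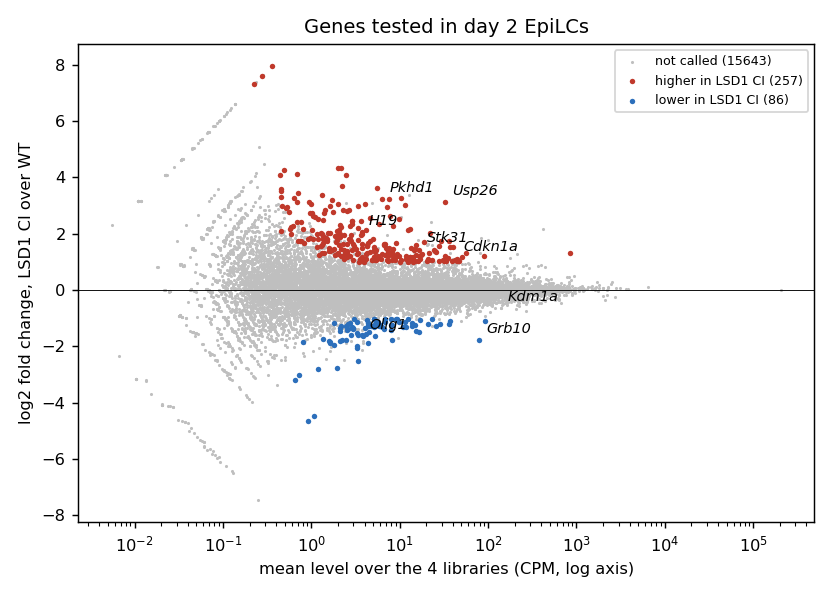
Log2 fold change of LSD1 CI over WT EpiLCs (vertical) against the mean level over the 4 libraries in CPM (horizontal, log axis), 1 point per gene tested. The 257 higher genes are red, the 86 lower genes blue and the others grey, and Usp26 stands out as a high change at a level well above most called genes.

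Usp26 was the called gene with the smallest adjusted p. It encodes a deubiquitinating enzyme known from the testis and lies on chromosome X (mm9, 49107136 to 49154410, minus strand). Its level was 55.2 and 60.2 CPM in LSD1 CI libraries, 42.4 and 37.8 CPM in LSD1 KO libraries and 7.09 and 6.30 CPM in WT libraries. Both mutants lay well above WT, and LSD1 CI lay above LSD1 KO. The LSD1 CI level was 8.75 times that of WT (log2 fold change 3.13 ± 0.10, adjusted p = 1.1e-10), and against LSD1 KO the log2 difference was 0.58 ± 0.09 (adjusted p = 3.2e-04, under the fold limit).

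Pkhd1 encodes fibrocystin, a protein of the primary cilium, and lies on chromosome 1 (20047860 to 20608138, minus strand). Its level was 9.998 and 12.8 CPM in LSD1 CI libraries, 14.01 and 12.1 CPM in LSD1 KO libraries and 1.59 and 0.93 CPM in WT libraries. LSD1 CI and LSD1 KO libraries overlapped here and both were above WT. The change from WT was 3.22 ± 0.23 on the log2 scale (adjusted p = 1.1e-06), and the difference from LSD1 KO was -0.14 ± 0.18 (adjusted p = 0.64).

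Grb10 went the other way. It is an imprinted gene whose product is an adaptor that dampens insulin receptor signalling, and it lies on chromosome 11 (11830502 to 11937423, minus strand). Its level was 30.8 and 39.3 CPM in LSD1 CI libraries, 61.8 and 58.7 CPM in LSD1 KO libraries and 108 and 136 CPM in WT libraries, and no 2 groups overlapped. It fell by 1.78 ± 0.13 on the log2 scale in LSD1 CI against WT (adjusted p = 2.6e-05), and the difference from LSD1 KO was -0.72 ± 0.13 (adjusted p = 0.0025, under the fold limit). All 3 of these calls held under each of 13 alternative fits.

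**Figure D2:**
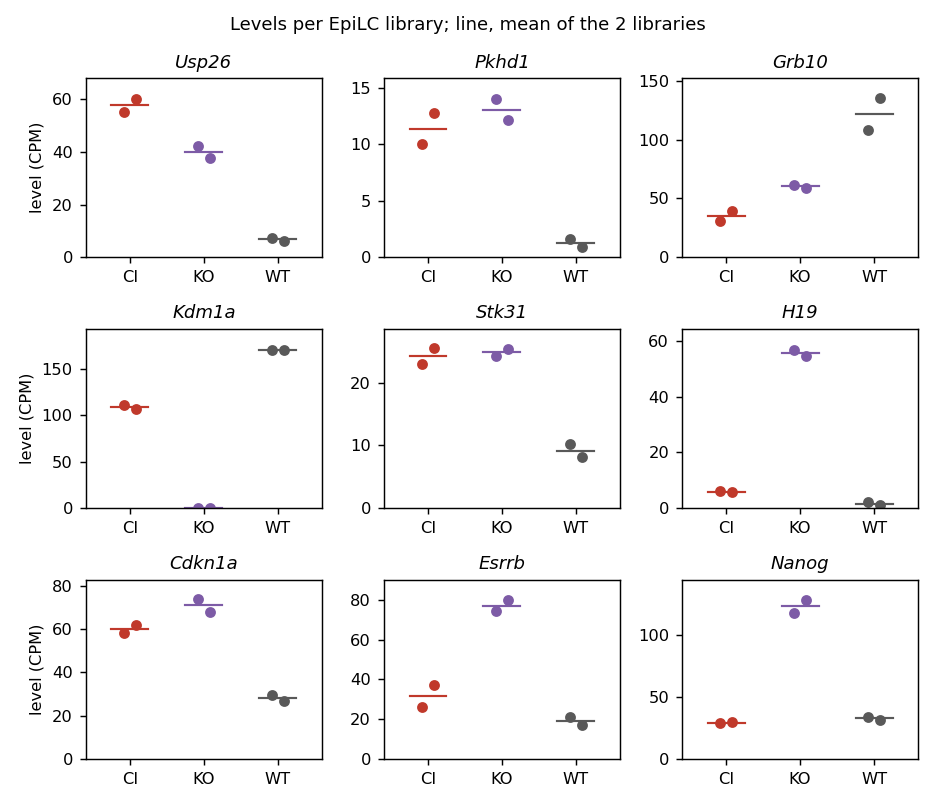
Level in CPM (vertical, from 0) of 9 genes in each EpiLC library, with LSD1 CI (CI), LSD1 KO (KO) and WT from left to right. Points are the 2 libraries of a group and the line is their mean. Usp26 and Stk31 are high in both mutants, H19, Esrrb and Nanog are far higher in KO than in CI, and Kdm1a is near 0 in KO.

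The promoters of these genes differ in their content of CG, the dinucleotide at which mammalian DNA is methylated. They are shown from RefSeq (GRCm38.p6, a different build from the mm9 of the counts), from 250 bases before the start of a transcript to 50 after it, on the strand of the gene, with each CG in capitals. Usp26 (chrX:51801184-51801483, minus strand) held 5 CG and Pkhd1 (chr1:20618008-20618307, minus strand) held 4. Grb10 had 2 such windows, of which the one at chr11:12037371-12037670 held 45 CG and that at chr11:12027922-12028221 held 9.
Usp26: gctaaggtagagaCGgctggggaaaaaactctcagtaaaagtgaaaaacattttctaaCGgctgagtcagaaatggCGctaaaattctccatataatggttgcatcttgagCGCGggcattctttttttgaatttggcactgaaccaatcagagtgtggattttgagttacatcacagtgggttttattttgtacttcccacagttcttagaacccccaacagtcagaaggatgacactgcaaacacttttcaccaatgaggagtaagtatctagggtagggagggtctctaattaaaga
Pkhd1: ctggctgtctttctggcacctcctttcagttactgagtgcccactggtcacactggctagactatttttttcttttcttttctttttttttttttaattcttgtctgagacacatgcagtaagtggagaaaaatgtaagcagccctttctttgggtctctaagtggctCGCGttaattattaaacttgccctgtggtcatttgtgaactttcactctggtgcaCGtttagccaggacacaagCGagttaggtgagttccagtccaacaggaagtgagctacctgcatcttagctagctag
Grb10, 45 CG: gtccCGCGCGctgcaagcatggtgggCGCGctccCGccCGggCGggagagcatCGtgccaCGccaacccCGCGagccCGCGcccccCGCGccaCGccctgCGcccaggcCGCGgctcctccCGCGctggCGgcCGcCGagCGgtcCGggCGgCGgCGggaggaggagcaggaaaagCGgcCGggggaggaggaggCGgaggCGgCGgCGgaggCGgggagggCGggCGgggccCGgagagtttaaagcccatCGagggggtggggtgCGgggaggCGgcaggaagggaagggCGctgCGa
Grb10, 9 CG: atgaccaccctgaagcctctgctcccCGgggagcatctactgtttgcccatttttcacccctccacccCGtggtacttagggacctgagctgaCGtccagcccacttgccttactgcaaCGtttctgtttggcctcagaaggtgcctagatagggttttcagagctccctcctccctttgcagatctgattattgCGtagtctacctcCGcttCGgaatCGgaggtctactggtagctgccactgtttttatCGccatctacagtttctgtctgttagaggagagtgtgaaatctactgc
The first 2 sequences hold few CG, whereas the third is dense with it. Among the called genes with a promoter window, the median was 9 CG per 300 bases in the 209 higher genes and 20 in the 65 lower genes, against 21 over the 12320 tested genes with a window, taking the richest window where a gene has several. Level and CG content go together, so genes with a mean under 5 CPM were also taken alone. There the median was 7 CG in 122 higher genes and 16 in 35 lower genes, against 14 in all 4334 genes. At 5 CPM or more it was 13 in 87 higher genes and 23.5 in 30 lower genes, against 23 in all 7986 genes. These are descriptions of the letters, and methylation was not measured in these libraries.

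The largest increases, among genes reaching a mean of 1 CPM in a group, were led by 1700013H16Rik and Xlr5c, both on chromosome X. 1700013H16Rik was at 4.57 and 3.59 CPM in LSD1 CI libraries and at 0.40 and 0.04 CPM in WT libraries (log2 fold change 4.34 ± 0.46, adjusted p = 1.5e-04). Xlr5c was at 3.68 and 4.01 CPM in LSD1 CI libraries and at 0.32 and 0.08 CPM in WT libraries (4.33 ± 0.44). Xlr5a and Xlr4b, of the same X-linked lymphocyte-regulated family, rose by 3.24 ± 0.33 and 3.21 ± 0.46. Members of this family are near-identical copies, so reads may have been split between them and the values for single copies are uncertain.

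The other leading increases were in genes of varied function. Rcsd1, which encodes a protein that binds the actin capping protein CapZ, was at 9.48 and 11.2 CPM in LSD1 CI libraries against 1.35 and 0.41 CPM in WT libraries (3.64 ± 0.35, adjusted p = 1.5e-04). Smtnl1, a smoothelin-like muscle protein, was at 16.0 and 20.9 CPM against 3.16 and 0.91 CPM (3.26 ± 0.46, adjusted p = 0.0056). Pkd2l1, a cation channel of the polycystin family, was at 3.49 and 5.76 CPM against 0.40 and 0.16 CPM (4.09 ± 0.37), and Adgrg6, an adhesion receptor needed for myelination, was at 4.14 and 4.03 CPM against 0.35 and 0.29 CPM (3.69 ± 0.41). WT replicate 2 was the lower of the WT libraries in all 4 of these genes. Capn11 and Capn12, both calpain proteases, 4933401D09Rik, AI847159 and Bcl2l15, of the Bcl-2 family, completed the list, each at 2.61 CPM or less in every library of the LSD1 CI group, with log2 changes between 3.13 and 4.14. The call was lost without WT replicate 2 for Capn11, AI847159 and Bcl2l15 and without LSD1 CI replicate 2 for these 3 and 4933401D09Rik. It was also lost for Smtnl1 without either LSD1 CI library and, with that of Xlr5a, in the fit of the 4 libraries alone.

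The leading decreases were in low genes, some of them of the matrix and of smooth muscle and others of varied function. Cav1, the main protein of caveolae, was at 0.09 and 0.04 CPM in LSD1 CI libraries and at 0.70 and 2.84 CPM in WT libraries (log2 fold change -4.64 ± 0.87, adjusted p = 0.0029). Tnc, which encodes the matrix protein tenascin C, was at 0.09 CPM in both LSD1 CI libraries and at 0.92 and 3.19 CPM in WT libraries (-4.45 ± 0.78). Col1a2, a chain of type I collagen, was at 0.77 and 0.22 CPM against 1.70 and 5.13 CPM (-2.78 ± 0.61), and Acta2, smooth muscle actin, was at 0.33 and 0.27 CPM against 1.89 and 2.31 CPM (-2.80 ± 0.53). In each of these WT replicate 2 was the higher of the WT libraries, and all 4 calls were lost without it and without LSD1 CI replicate 2. Loxl2, a collagen cross-linking enzyme, was at 1.12 and 0.86 CPM in LSD1 CI libraries and at 4.13 and 7.43 CPM in WT libraries, and its fall of 2.53 ± 0.33 held in every alternative. Gpc6, a glypican of the cell surface, was at 1.45 and 1.04 CPM against 4.59 and 5.95 CPM (-2.07 ± 0.30, adjusted p = 4.7e-04, lost without LSD1 CI replicate 2), and Ccnd2, cyclin D2, at 2.13 and 1.64 CPM against 4.32 and 9.47 CPM (-1.87 ± 0.34, lost without WT replicate 2 or either LSD1 CI library). Gucy1b1, Cplx2, Itpkb, Slc9b2, Thbs4, Apba2, Moxd1 and Zcchc18 had log2 changes between -3.20 and -1.81, and each lost its call without at least 1 of the 4 libraries.

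Markers of other cells were also measured. The 14 genes of a mesenchymal and fibroblast list summed to 118 and 125 CPM in LSD1 CI libraries and to 117 and 201 CPM in WT libraries, so that WT replicate 2 stood above the other 3. In LSD1 KO libraries the sums were 304 and 327 CPM. The part of these genes in the result was not tested. In bulk RNA fewer cells of a type and less RNA per cell cannot be told apart. Of the 11 that were tested, 2 fell (Col1a2 and Acta2) and 0 rose (2 at an unadjusted p below 0.05, and 0 with DESeq2), with a median log2 change of -0.77 against 0.01 over all genes tested.

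Of 18 naive pluripotency genes, 2 rose and 1 fell in LSD1 CI EpiLCs, and 15 had a positive log2 difference, with a median of 0.51. At an unadjusted p below 0.05, 10 were higher and 1 lower, against 2337 and 2044 of all 15986 genes tested. The 18 genes summed to 529 and 626 CPM in LSD1 CI libraries and to 478 and 394 CPM in WT libraries, WT replicate 2 being the lower. Tbx3, a T-box factor of the naive network, was at 2.15 and 2.39 CPM in LSD1 CI libraries, at 5.82 and 6.998 CPM in LSD1 KO libraries and at 0.81 and 0.49 CPM in WT libraries (log2 fold change over WT 1.84 ± 0.30, adjusted p = 9.6e-04). Dppa3, which protects maternal methylation in the zygote, was at 5.78 and 6.91 CPM, 14.4 and 11.3 CPM, and 1.81 and 2.47 CPM in the same order (1.57 ± 0.24, adjusted p = 5.7e-04). The Tbx3 call was lost without WT replicate 2 and without LSD1 CI replicate 2, whereas that of Dppa3 held in the 12 alternatives that include chromosome 6. Nr5a2, a nuclear receptor that sustains Pou5f1, was the member that fell, at 2.997 and 2.41 CPM in LSD1 CI libraries and 4.75 and 7.33 CPM in WT libraries (-1.15 ± 0.24, adjusted p = 0.0052). Its call was lost without WT replicate 2 and without either LSD1 CI library.

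Klf2 and Esrrb, transcription factors that mark the naive state, had smaller values. Klf2 was at 17.5 and 22.0 CPM in LSD1 CI libraries, at 36.3 and 45.8 CPM in LSD1 KO libraries and at 13.1 and 10.5 CPM in WT libraries, with a log2 difference from WT of 0.77 ± 0.15 (adjusted p = 0.0047, under the fold limit). Esrrb was at 26.1 and 37.3 CPM in LSD1 CI libraries, at 74.2 and 80.1 CPM in LSD1 KO libraries and at 21.3 and 16.8 CPM in WT libraries, with a log2 difference from WT of 0.76 ± 0.18 (adjusted p = 0.026). The groups did not overlap for either gene. Against LSD1 KO, the log2 difference was -1.001 for Klf2 (adjusted p = 2.7e-04) and -1.22 for Esrrb (adjusted p = 0.0014), both called. Of the 18 naive genes 9 were lower in LSD1 CI than in LSD1 KO EpiLCs and 0 were higher, with a median of -0.998. Nanog, another core factor, was at 28.8 and 29.4 CPM in LSD1 CI libraries, 117 and 128 CPM in LSD1 KO libraries and 34.1 and 31.6 CPM in WT libraries.

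General and formative genes gave 0 calls in either direction. Among 11 general pluripotency genes, with a median of 0.04, 5 had an unadjusted p below 0.05 and DESeq2 called 0. Pou5f1, which encodes OCT4, was at 429 and 403 CPM in LSD1 CI libraries and at 428 and 394 CPM in WT libraries (log2 difference 0.04 ± 0.07). Sox2 was at 75.7 and 79.5 CPM against 68.2 and 60.7 CPM (0.29 ± 0.09, adjusted p = 0.041). Among 18 formative genes, with a median of -0.05, 8 had an unadjusted p below 0.05 and DESeq2 called 0. Dnmt3b, the methyltransferase checked above, had a log2 difference of -0.21 ± 0.04 from WT (adjusted p = 0.0042) and of 0.76 ± 0.04 from LSD1 KO, both under the fold limit.

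**Figure D3:**
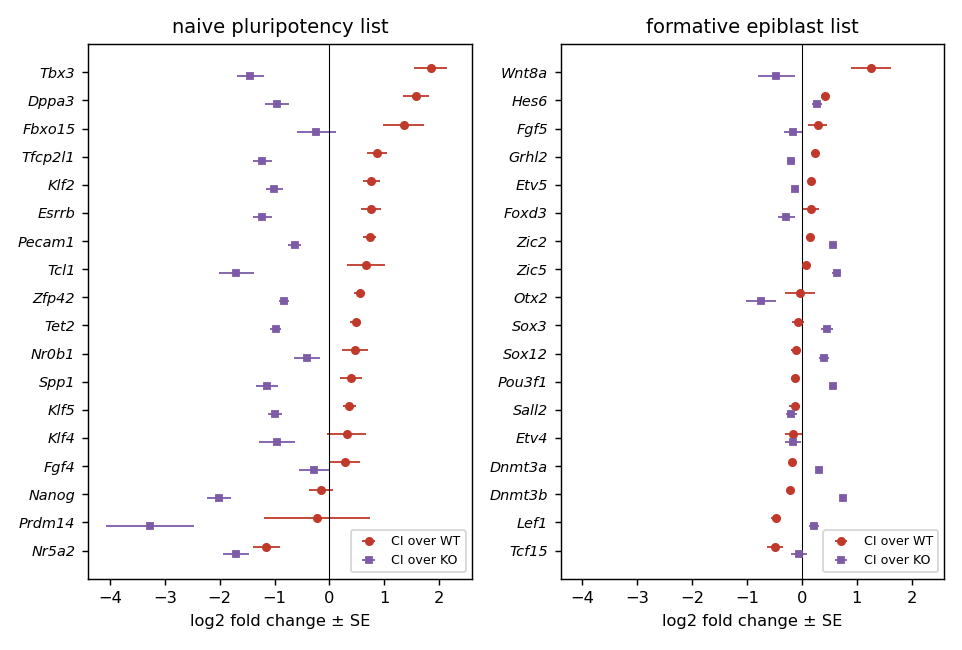
Log2 fold change ± SE (horizontal) of each gene of the naive (left) and formative (right) lists, LSD1 CI over WT as circles and LSD1 CI over LSD1 KO as squares. In the naive list most circles lie right of 0 and all squares left of it, and in the formative list both lie on either side of 0. Both comparisons use the same LSD1 CI libraries.

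Germline genes were another group with increases. Of 25 germline and meiosis genes tested, 4 rose and 0 fell (1 at an unadjusted p below 0.05, and 0 with DESeq2), with a median of 0.25. Stk31, a kinase-like protein of germ cells, was at 22.9 and 25.5 CPM in LSD1 CI libraries, 24.2 and 25.4 CPM in LSD1 KO libraries and 10.2 and 8.07 CPM in WT libraries (1.43 ± 0.13, adjusted p = 9.2e-06). Sycp1, a component of the synaptonemal complex, was at 6.46 and 6.78 CPM in LSD1 CI libraries and 3.10 and 2.16 CPM in WT libraries (1.36 ± 0.23). Rpl10l, a ribosomal protein of the testis, rose by 1.34 ± 0.16, and Dazl, an RNA-binding protein of germ cells, was at 19.5 and 23.3 CPM against 12.3 and 9.14 CPM (1.02 ± 0.17, adjusted p = 0.0013). The calls of Sycp1 and Dazl were lost without WT replicate 2 and without LSD1 CI replicate 2. In the piRNA pathway, which guards germ cells from transposons, 2 of 14 genes rose and 0 fell (2 at an unadjusted p below 0.05, and 0 with DESeq2). Tdrd12 was at 118 and 135 CPM in LSD1 CI libraries and 64.8 and 45.3 CPM in WT libraries (1.23 ± 0.19, adjusted p = 0.0077), a call that was lost without either LSD1 CI library, in the fit of the 4 libraries alone and without chromosomes 6 and Y. Gtsf1 rose by 2.04 ± 0.34 (adjusted p = 0.0011), a call lost without WT replicate 2.

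Many germline promoters carry the E-box CACGTG, bound by factors such as MGA with MAX. It was searched as these 6 letters, which read the same on both strands. The Stk31 window (GRCm38.p6, chr6:49395289-49395588, plus strand), which holds it once, is shown with the motif in capitals.
Stk31: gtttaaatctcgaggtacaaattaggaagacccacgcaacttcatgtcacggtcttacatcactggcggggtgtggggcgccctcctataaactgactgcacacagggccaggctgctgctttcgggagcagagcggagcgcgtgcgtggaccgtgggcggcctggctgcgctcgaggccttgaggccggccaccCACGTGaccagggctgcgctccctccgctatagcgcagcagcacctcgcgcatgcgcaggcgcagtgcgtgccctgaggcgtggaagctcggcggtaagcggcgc
Of the 4 germline genes that rose, Stk31 and Sycp1 held it, and Dazl and Rpl10l did not in their windows. Over the called genes with a window it was present in 7.7% of the higher and 10.8% of the lower genes, against 11.3% of all, and a match is a description of the letters only.

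Imprinted genes, which are expressed from 1 parental copy and kept so by DNA methylation, moved in both directions. Of 39 tested, 3 rose and 2 fell, with a median of 0.32, and 25 had a positive log2 difference. At an unadjusted p below 0.05, 17 were higher and 6 lower, against 2337 and 2044 of all 15986 genes tested. Phlda2, a growth-restraining gene, was at 8.62 and 7.49 CPM in LSD1 CI libraries, 11.3 and 11.8 CPM in LSD1 KO libraries and 22.1 and 22.5 CPM in WT libraries (-1.45 ± 0.15, adjusted p = 3.2e-05), and Grb10 was the other that fell. The 3 that rose are named after their values were seen. H19, a noncoding RNA of the Igf2 domain, was at 6.02 and 5.82 CPM in LSD1 CI libraries, 56.8 and 54.8 CPM in LSD1 KO libraries and 2.05 and 0.95 CPM in WT libraries (2.05 ± 0.29, adjusted p = 0.0014), and its log2 difference from LSD1 KO was -3.18 ± 0.23. Usp29 rose by 1.72 ± 0.23 and Nap1l5 by 2.48 ± 0.35. The H19 call was lost without either LSD1 CI library. Kcnq1ot1, a noncoding RNA that silences its domain, Mest and Sfmbt2 had log2 differences of 0.81, 0.80 and 0.62, with adjusted p of 8.6e-07, 3.7e-06 and 5.2e-06, under the fold limit.

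Among targets of p53 1 of 17 rose and 0 fell (0 at an unadjusted p below 0.05, and 0 with DESeq2), with a median of 0.28 and 7 genes at an adjusted p below 0.01 and a positive difference, which held for 3.97% of all genes tested. Cdkn1a, the cell cycle inhibitor p21, was at 58.3 and 61.7 CPM in LSD1 CI libraries, 74.2 and 68.0 CPM in LSD1 KO libraries and 29.4 and 26.7 CPM in WT libraries (1.12 ± 0.08, adjusted p = 1.1e-06). Mdm2, the ubiquitin ligase that degrades p53, had a difference of 0.43 ± 0.05 (adjusted p = 1.2e-04). The 20 proliferation genes had a median of -0.01 and 0 calls (3 at an unadjusted p below 0.05, 0 with DESeq2).

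Of 22 neural genes 2 fell and 0 rose (2 at an unadjusted p below 0.05, and 1 with DESeq2), with a median of -0.46. Olig1 was at 1.498 and 2.17 CPM in LSD1 CI libraries, 1.84 and 1.92 CPM in LSD1 KO libraries and 5.50 and 6.01 CPM in WT libraries (-1.63 ± 0.27, adjusted p = 0.0011). Its neighbour Olig2, like it a factor of the oligodendrocyte lineage, was at 3.98 and 3.19 CPM, 4.54 and 3.59 CPM, and 7.69 and 8.05 CPM in the same order (-1.12 ± 0.25, adjusted p = 0.0076). Both mutants lay below WT in each case. The Olig2 call was lost when any of the 4 libraries was left out, and that of Olig1 without LSD1 CI replicate 1.

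In the remaining lists calls were few. Gata3, a trophoblast factor, rose by 1.80 ± 0.28 and Plac8 fell by 1.28 ± 0.29 among 12 trophoblast genes. Ube2l6, an enzyme of ISG15 conjugation, rose by 2.10 ± 0.27 among 23 interferon genes, whose median was 0.71. Of these 23, 13 were higher and 1 lower at an unadjusted p below 0.05, against 2337 and 2044 of all 15986 genes tested. DESeq2 called 3 of them higher and 0 lower. The Gata3 call was lost in the fit of the 4 libraries alone and that of Plac8 without WT replicate 2 or either LSD1 CI library. Of the other cell types, 14 genes of extraembryonic endoderm, 12 of cardiac and 9 of blood and endothelial cells had 0 calls (4, 5 and 3 at an unadjusted p below 0.05, and 0, 0 and 2 with DESeq2). The 13 genes of the LSD1 and CoREST complex had 0 calls (3 at an unadjusted p below 0.05, 0 with DESeq2). Rcor1 was at 51.7 and 48.8 CPM in LSD1 CI libraries and 56.0 and 50.6 CPM in WT libraries, Rcor2 at 112 and 121 CPM against 126 and 117 CPM, and Rcor3 at 7.33 and 8.64 CPM against 8.33 and 7.60 CPM. Their groups overlapped in each case. Rnf213 and Psap, genes that the study followed, differed from WT by 0.22 ± 0.12 and 0.16 ± 0.05 on the log2 scale and were not called.

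Of 7 genes tested on chromosome Y, 5 rose in LSD1 CI EpiLCs and the median log2 change was 1.73. Eif2s3y, a translation initiation factor, was at 39.5 and 42.9 CPM in LSD1 CI libraries, 28.3 and 25.5 CPM in LSD1 KO libraries and 14.3 and 13.8 CPM in WT libraries (1.57 ± 0.10, adjusted p = 4.6e-07). Ddx3y, an RNA helicase, rose by 1.02 ± 0.08, the demethylase Kdm5d by 1.73 ± 0.30 and the zinc finger gene Zfy1 by 2.98 ± 0.33, so the changes were of unequal size. The Ddx3y call was lost without LSD1 CI replicate 2, and those of Kdm5d and of Usp9y, a deubiquitinating enzyme that was the other called gene, were lost without LSD1 CI replicate 2 and without WT replicate 2. On the same contrast the Y median was 2.13 in ESCs, 2.39 in serum cells and 2.23 in embryoid bodies (EBs). Of the called genes on chromosome X 24 were higher and 9 lower, which is 9.34% of the higher and 10.5% of the lower genes, whereas 3.83% of the genes tested lie on it.

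The other chromosomes had medians near 0, from -0.04 to 0.04, except chromosome 6. Its 762 tested genes had a median of -0.18, with 16 higher and 15 lower, so that it held 17.4% of all lower genes and 4.77% of the genes tested. Its share of all counts other than Rn45s was 4.41% and 4.51% in LSD1 CI libraries, 4.99% and 5.24% in LSD1 KO libraries and 4.84% and 5.46% in WT libraries. WT replicate 2 stood above WT replicate 1. The median was -0.10 without WT replicate 2 and -0.26 without WT replicate 1. It was -0.18 without LSD1 CI replicate 1 and -0.22 without LSD1 CI replicate 2. For LSD1 CI against WT in the other cultures, the chromosome 6 median was 0.03 in ESCs, -0.05 in serum cells and 0.14 in EBs. The part of this shift in the calls on chromosome 6, among them Cav1, Ccnd2, Col1a2, Dppa3, Nap1l5 and Stk31, was not tested gene by gene. Without the genes of chromosomes 6 and Y, 228 genes were higher and 72 lower.

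**Figure D4:**
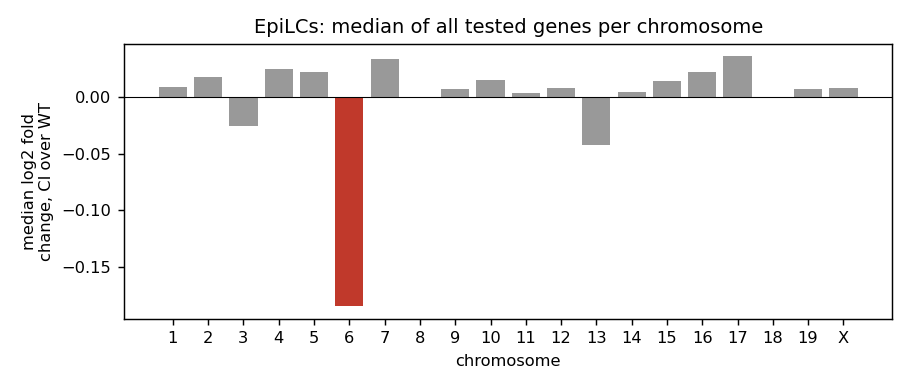
Median log2 fold change of LSD1 CI over WT EpiLCs (vertical) over all tested genes of each chromosome (horizontal; chromosome Y, at 1.73, is left off). Chromosome 6, in red, lies at -0.18 and the others lie between -0.04 and 0.04.

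Set directly against LSD1 KO EpiLCs, LSD1 CI EpiLCs were higher in 155 genes (0.97% of those tested) and lower in 481 (3.01%). The lowest chromosome medians in this contrast were -0.20 on chromosome 16 and -0.17 on chromosome 6. Chromosome 16 took 2.79% and 2.77% of counts other than Rn45s in LSD1 CI libraries and 3.25% and 3.18% in LSD1 KO libraries. The part of these shifts in the 2 gene counts was not tested. The lower genes included 9 of the 18 naive, 6 of the 12 trophoblast and 5 of the 39 imprinted genes. Sfmbt2 was at 157 and 147 CPM in LSD1 CI libraries, against 602 and 629 CPM in LSD1 KO libraries (-1.96, adjusted p = 1.8e-12). Rnf213, a large ubiquitin ligase, was among the higher ones, at 117 and 107 CPM against 54.6 and 48.1 CPM (1.18 ± 0.12, adjusted p = 3.4e-05). The germline and p53 lists had 1 and 0 genes lower than in LSD1 KO and 0 higher in each. Without LSD1 CI replicate 1 the counts were 98 and 289, and without LSD1 KO replicate 2 they were 100 and 313.

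The same inactive LSD1 was profiled in 3 other cultures, with WT libraries of the same culture, none of them shared with the EpiLCs. The labels do not say which of the 11 WT ESC and 7 WT EB libraries were grown alongside the LSD1 CI libraries. No term for experiment was fitted, so in ESCs and EBs differences between experiments and those of genotype were not separated. The serum libraries carry DMSO in their labels as the EpiLC libraries do, and the ESC and EB libraries compared do not, so in the comparison of EpiLCs with ESCs solvent and culture cannot be told apart. In naive ESCs (4 LSD1 CI and 11 WT libraries) 153 genes were higher (1% of 15237) and 68 lower (0.446%). After serum culture with DMSO and without inhibitors or LIF (2 and 2 libraries) 393 were higher (2.41% of 16296) and 94 lower (0.577%). In EBs (4 and 7 libraries) 85 were higher (0.553% of 15360) and 151 lower (0.983%). Of the 247 genes higher in EpiLCs that were tested in ESCs, 50 were higher there too, which is 20.2% of that list and 32.9% of the ESC list, where 1.04% of the jointly tested genes were called that way. In serum cells 69 of 254 were shared, 27.2% of the EpiLC list and 19.6% of the serum list, where 2.26% of the jointly tested genes were called higher. In EBs 9 of 174 were shared, 5.17% and 10.6%, where 0.586% of the jointly tested genes were called higher. Without LSD1 CI replicate 2 of the ESCs their counts were 93 higher and 29 lower, and without replicate 4 the lower count was 33. Without LSD1 CI replicate 2 of the serum cells the lower count was 56, and without LSD1 CI replicate 1, 2 or 3 of the EBs the counts were 56, 44 and 42 higher and 97, 75 and 70 lower.

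Of the genes lower in EpiLCs that were tested in each culture, 6 of 76 were lower in ESCs (7.89% of the EpiLC list, 8.96% of the ESC list), 16 of 86 in serum cells (18.6% and 17.2%) and 2 of 86 in EBs (2.33% and 1.40%), where another 2 of the 86 were called higher. Over all jointly tested genes the share called lower was 0.459% in ESCs, 0.597% in serum cells and 0.986% in EBs. Of the genes higher in EpiLCs, 1 was called lower in ESCs, 0 in serum cells and 1 in EBs. The median log2 change of the genes higher in EpiLCs was 0.79 in ESCs, 1.28 in serum cells and -0.02 in EBs, against medians of -0.02, -0.01 and -0.01 over all genes tested in both. Across all jointly tested genes the correlation of the log2 changes with those in EpiLCs was 0.20 in ESCs (14597 genes), 0.38 in serum cells (15566 genes) and -0.01 in EBs (14504 genes). Genes are not independent replicates, and these are descriptions.

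**Figure D5:**
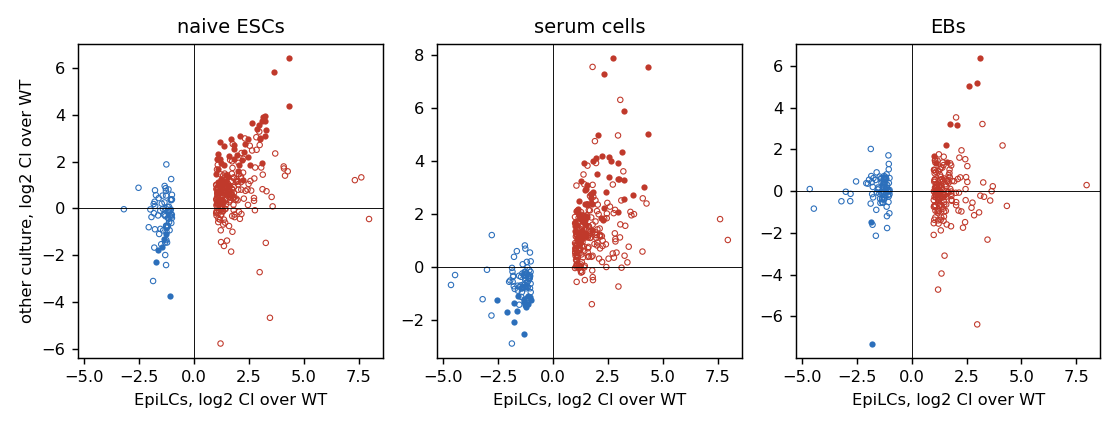
Log2 fold change of LSD1 CI over WT in naive ESCs, serum cells and EBs (vertical, left to right) against that in EpiLCs (horizontal), for genes called in EpiLCs and tested in the other culture. Red genes are higher and blue genes lower in EpiLCs, and filled points were called in the same direction in the other culture. Most red points lie above 0 in ESCs and serum cells and are spread about 0 in EBs.

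A core of 23 genes was higher in EpiLCs, ESCs and serum cells, among them Usp26, Pkhd1, Rcsd1, Smtnl1, Dazl and Zfy1, and 3 were lower in all 3 cultures (Olig1, Olig2 and Nhs, the last named after its values were seen). Of the 23, Usp26, 1700013H16Rik, Xlr5c, Xlr5a, Gm364, Xlr4a, Was, Pnma5 and Nxf3 lie on chromosome X, and Zfy1 and Eif2s3y on Y. Gm364, Xlr4a, Was, Pnma5 and Nxf3 are named after their values were seen. Whether this sharing comes with the lines was not tested. Usp26 was at 53.3 ± 5.73 CPM (SD, n = 4) in LSD1 CI ESCs against 3.49 ± 1.39 CPM (n = 11) in WT ESCs, and at 3.87 ± 1.46 CPM (n = 4) in LSD1 CI EBs against 0.04 ± 0.08 CPM (n = 7) in WT EBs. Its log2 change was 3.90 in ESCs, 4.33 in serum cells and 6.38 in EBs, called in each. Pkhd1 was at 7.68 ± 6.41 CPM (n = 4) in LSD1 CI ESCs against 0.42 ± 0.20 CPM (n = 11) in WT ESCs, so its replicates varied far more there than in EpiLCs.

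The response of Grb10 ranged widely. It was at 6.75 ± 1.59 CPM (SD, n = 4) in LSD1 CI EBs against 1109 ± 127 CPM (n = 7) in WT EBs (log2 fold change -7.31 ± 0.20, adjusted p = 4.4e-10), at 112 ± 4.19 CPM (n = 2) in LSD1 CI serum cells against 484 ± 6.71 CPM (n = 2) in WT serum cells (-2.09 ± 0.12), and at 44.6 ± 4.44 CPM (n = 4) in LSD1 CI ESCs against 74.7 ± 18.3 CPM (n = 11) in WT ESCs (-0.89 ± 0.12, adjusted p = 2.7e-04, under the fold limit). The WT level itself was 122 CPM in EpiLCs. The response in EpiLCs minus that in ESCs was -0.92 ± 0.22 on the log2 scale (adjusted p = 0.097).

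That difference in response was tested for every gene in 1 model of both cultures. Of 17055 genes 2 were called, 1 in each direction (0.00586% each), whereas DESeq2 called 47 and 26. Olig2 fell less in EpiLCs than in ESCs, with a difference of 2.58 ± 0.37 (adjusted p = 0.0058). It was at 2.08 ± 0.21 CPM (SD, n = 4) in LSD1 CI ESCs against 27.6 ± 6.35 CPM (n = 11) in WT ESCs. Wipf1, which encodes a partner of the actin regulator WASP and is named after its values were seen, was at 3.11 and 3.65 CPM in LSD1 CI EpiLCs against 7.96 and 8.71 CPM in WT EpiLCs, whereas it was at 5.92 ± 0.45 CPM (n = 4) in LSD1 CI ESCs against 3.24 ± 0.79 CPM (n = 11) in WT ESCs (difference -2.05 ± 0.28, adjusted p = 0.0055). With LSD1 CI replicate 1, LSD1 CI replicate 2 or WT replicate 2 of the EpiLCs left out, edgeR called 0 genes (1125, 980 and 867 at an unadjusted p below 0.05), and without WT replicate 1 it called 5, of which 1 was among these 2.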

How the data were processed

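Libraries were depleted of rRNA, made with a directional kit and sequenced as 150-base pairs. Per the labels and methods, the authors trimmed reads with Trim Galore, aligned them to mm9 with STAR 2.7.9a, removed duplicates with Picard 2.25.5 and deposited featureCounts read counts per gene (reverse-stranded). Between 81.2% and 82.6% of low counts in the 4 libraries were even, so mates appear to have been counted separately, and halved counts were an alternative.

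Counts were fitted in edgeR 4.0.16 (R 4.3.3): filterByExpr, TMM and a robust quasi-likelihood F test over 8 EpiLC libraries, with LSD1 KO and A485-treated LSD1 KO adding to the estimate of spread. The ESC fits had a term for 3 WT libraries with no counts on unplaced contigs. Each SE was taken as the fitted log2 change over the root of its F statistic. Alternatives were DESeq2 1.42.0, its size factors, other filters, 4 libraries, a replicate block, omitted libraries, Rn45s left out and, added after seeing the data, genes of chromosomes 6 and Y left out. Counts were also simulated for LSD1 CI against WT EpiLCs (15607 genes), drawn independently with the dispersions that edgeR had fitted. Changes were placed only in genes of 1 CPM or more, with no shift of a library or a chromosome. There edgeR recovered 94% of genes changed by 1.5 and 97% of those changed by 3 on the log2 scale, with 2 false calls. Since such shifts are absent from the simulation, it gives no error rate for the real libraries.

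Members and lists were chosen with earlier results of these data known. Named genes were Usp26, Pkhd1 and Grb10, the LSD1 and CoREST genes, genes the study named, the 15 called genes in each direction that changed most (reaching 1 CPM on average in either group, libraries not overlapping), and the 5 members of each list ranking first by adjusted p; only some are printed. Other tools were limma 3.58.1, Python 3.11.15, pandas 2.3.3 and matplotlib 3.10.9.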

Additional observations from a re-analysis of the deposited data

Results flagged for a closer look

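The change of Olig2 on inactivation of LSD1 differed between cultures by the test of the difference itself, being 2.58 higher on the log2 scale in EpiLCs than in ESCs. That test called 0 genes without LSD1 CI replicate 1, LSD1 CI replicate 2 or WT replicate 2 of the EpiLCs. Solvent and culture cannot be told apart in it. In LSD1 CI EBs, 1 of the 4 libraries stood apart for Pkhd1, at 1.37 CPM, and in WT EBs 1 of the 7 libraries stood apart for Grb10, at 1355 CPM. Chance alone sets apart about 1 library in 20 such groups, and 9 were looked at.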

How the results depend on the processing

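Of 59 named genes that were called, 23 were called in every alternative that gave them a value (13, or 12 for genes of chromosomes 6 and Y and for Hc), among them Usp26, Pkhd1, Grb10, Stk31, Cdkn1a and Dppa3, and 36 lost the call in at least 1, mostly with a library left out; DESeq2 lost 0 of them. The fit of the 4 libraries alone lost Ccnd2, Col1a2, Cplx2, Gata3, Moxd1, Plac8, Smtnl1, Tdrd12, Thbs4 and Xlr5a. With no filter on low counts 428 genes were higher and 186 lower in LSD1 CI than in WT EpiLCs, and at an adjusted p below 0.05 with no fold limit 1263 and 989. Leaving out 1 library of a compared group (in ESCs and EBs an LSD1 CI library, and for the difference in response an EpiLC library, WT ESCs and EBs having 7 or more) gave 108 to 388 higher and 18 to 168 lower genes against WT, 98 to 119 and 289 to 362 against LSD1 KO, 93 to 123 and 29 to 51 in ESCs, 266 to 361 and 56 to 118 in serum cells, 42 to 75 and 70 to 131 in EBs, and 0 to 2 and 0 to 3 for the difference in response between EpiLCs and ESCs. DESeq2 called 255 and 228 in ESCs, 595 and 144 in serum cells, 181 and 397 in EBs, and 47 and 26 for the difference, for which its size factors in edgeR gave 2 genes with a more positive response and 1 with a more negative one. Without a filter 149 genes were lower in serum cells. The cause of these shifts was not tested.

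Small changes turned sign when a library was left out, none of them called: over the 4 omissions Otx2 ranged from -0.20 to 0.12, Pou5f1 from -0.0079 to 0.079, Rcor2 from -0.096 to 0.013 and Rcor3 from -0.10 to 0.14. Same-numbered LSD1 CI and WT EpiLC libraries did not deviate together (correlation -0.03), so the numbers were not taken as pairs. With a replicate block 281 genes were higher and 93 lower in EpiLCs, where the calls of Col1a2, Cplx2 and Smtnl1 were lost, and 559 and 143 in serum cells.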

Other observations

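The called gene with the highest level was Mid1, a ubiquitin ligase of microtubules on chromosome X, chosen here after its values were seen. It was at 1211 and 1223 CPM in LSD1 CI libraries, at 178 and 210 CPM in LSD1 KO libraries and at 527 and 454 CPM in WT libraries, so the mutants lay on opposite sides of WT. The log2 change of LSD1 CI over WT was 1.33 ± 0.09.

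Other called genes above 25 CPM included some known from germ cells, also chosen after their values were seen. Tex19.1, which limits retrotransposons in germ cells, was at 50.6 and 59.2 CPM in LSD1 CI libraries, 58.1 and 64.5 CPM in LSD1 KO libraries and 20.4 and 12.9 CPM in WT libraries (1.76 ± 0.18). Morc1, needed for transposon silencing in the male germline, was at 75.4 and 85.4 CPM, 126 and 110 CPM, and 41.1 and 25.5 CPM in the same order (1.30 ± 0.20, adjusted p = 0.0081 in edgeR's fit across all genes). Per2 and Per3, core repressors of the circadian clock, fell: Per3 was at 7.19 and 6.42 CPM in LSD1 CI libraries against 16.8 and 17.3 CPM in WT libraries, and Per2 at 1.78 and 1.57 CPM against 4.40 and 5.40 CPM. The Per2 call was lost without WT replicate 2 and without either LSD1 CI library, and Mid1, Tex19.1, Morc1 and Per3 were not followed through the alternatives.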
